A study of Ovis aries with 3 samples.

Results

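IGFBP2, IGFBP5 and IGFBP6 are 3 genes of the insulin-like growth factor (IGF) binding protein family, described here in single cells of the rumen epithelium of Hu sheep aged 42 days. The members were found by their symbols, each carried by 1 row of the gene lists of all 3 libraries, so they are 3 of 26247 genes. The genes were selected on their UMI levels in an earlier analysis of the same libraries, so their levels and differences between diets are descriptions with no test. Rumen tissue was digested with trypsin and the cells were loaded on a droplet instrument that labels each RNA molecule with a unique molecular identifier (UMI). There was 1 library for lambs given milk with a concentrate starter introduced, 1 for milk with alfalfa hay introduced and 1 for milk only. All 3 groups received milk, and the labels do not say how many lambs went into a library. The title of the study places these diets in the context of rumen parakeratosis, a disorder of keratinocyte maturation, after early starter feeding.

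IGF-binding proteins are secreted and bind IGF-I and IGF-II with high affinity. They carry the ligands, limit their access to the IGF1 receptor, and release them when proteases cut the binding protein. IGFBP2 also carries an integrin-binding motif, IGFBP5 attaches to extracellular matrix and is a common product of connective tissue, and IGFBP6 prefers IGF-II over IGF-I. In squamous epithelia such as the rumen wall, the basal layer holds the dividing keratinocytes and cells mature as they move to the lumen. In the sheep reference assembly, IGFBP2 and IGFBP5 are neighbours with no annotated gene between them, next to RPL37A on the IGFBP2 side, whereas IGFBP6 lies elsewhere, beside SPRYD3. No sequence is shown.

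The concentrate, hay and milk-only libraries held 60220174, 56861548 and 63057979 UMIs. After cell filters 4891, 7031 and 3850 cells remained, of which 4686, 6998 and 3433 were keratinocytes, and the median cell had 8050, 5887 and 11021 UMIs. The 6 of 9 keratinocyte markers that had a symbol were all detected in the keratinocytes of every library, with summed levels of 8699, 6794 and 9285 counts per 1000000 UMIs (CPM). Depth and cell makeup also differed between the libraries. The lowest barcode had 1047, 2263 and 727 UMIs, the median mitochondrial share was 10.2%, 9.75% and 6.18%, and 36, 23 and 695 cells were differentiated keratinocyte-like. Fibroblast-like cells numbered 57 with concentrate and 0 in the other libraries, and endothelial-like cells numbered 59, 0 and 3. Library, diet and animal cannot be told apart. Libraries shared 28 barcodes (concentrate and hay), 15 (concentrate and milk only) and 17 (hay and milk only).

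In keratinocytes all 3 binding proteins were lower with hay than with milk only, while concentrate went with a different pattern for each gene. IGFBP2 was at 868 CPM with concentrate, 281 CPM with hay and 1243 CPM with milk only. It was 4.42-fold lower with hay than with milk only (95% interval 4.33 to 4.50), and 1.43-fold lower with concentrate than with milk only (1.41 to 1.45). The hay library thus stood apart for IGFBP2, with the concentrate level 3.09 times the hay level (3.03 to 3.15). All intervals cover counting error only.

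IGFBP5 was at 280.4 CPM with concentrate, 51.3 CPM with hay and 221 CPM with milk only. Hay was again the low library, 4.30-fold below milk only (4.11 to 4.49). Concentrate was 1.27 times milk only (1.24 to 1.31) and 5.46 times hay (5.22 to 5.71). IGFBP5 was the member with a level above milk only in 1 of the 2 solid-feed libraries, and the direction of that difference turned under other cell selections described below.

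IGFBP6 followed another order. It was at 109.5 CPM with concentrate, 85.5 CPM with hay and 254 CPM with milk only, so both solid-feed libraries lay below milk only. The level was 2.32-fold lower with concentrate than with milk only (2.24 to 2.40) and 2.97-fold lower with hay than with milk only (2.87 to 3.08), and concentrate was 1.28 times hay (1.23 to 1.34). That last direction turned in cycling keratinocyte-like cells, at 0.875 (0.797 to 0.961), and without cluster 0, at 0.984 (0.940 to 1.03). In cycling cluster 5 alone (188 concentrate and 907 hay cells) it was 1.03 (0.890 to 1.19). The summed level of the 8 fibroblast markers in keratinocytes was 38.4, 8.91 and 171 CPM for concentrate, hay and milk only, and 8, 7 and 4 of them were detected. The milk-only sum was nearly all DCN, the proteoglycan decorin, at 168 CPM, against 25.2 CPM with concentrate and 3.93 CPM with hay. The collagens ran the other way, with COL3A1 at 7.43, 1.89 and 0.126 CPM and COL1A1 at 1.17, 0.399 and 0.210 CPM in concentrate, hay and milk only. COL1A2, COL6A3, LUM and PDGFRA were at 0 there and COL3A1 had 6 UMIs. The T or NK markers summed to 0.831, 1.11 and 18.5 CPM, and their part in these levels was not tested.

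**Figure D1:**
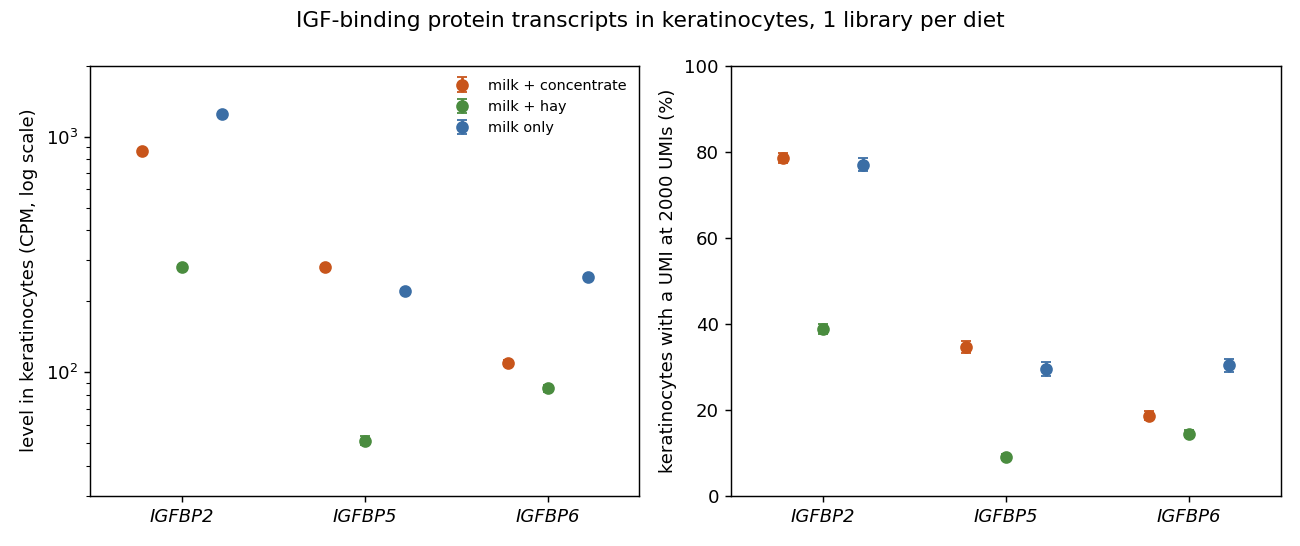
Left, level of each gene in keratinocytes in CPM on a log axis; right, share of keratinocytes thinned to 2000 UMIs that held at least 1 UMI of the gene. Points are the concentrate, hay and milk-only libraries, 1 each, and bars are 95% counting intervals. The hay point is lowest in every panel, and IGFBP6 is highest with milk only.

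Among 4758 genes with at least 10 CPM in the keratinocytes of a library, 9.1% differed at least 2-fold either way between concentrate and milk only, 11.5% between hay and milk only and 4.43% between concentrate and hay. Of the 3 members, 1 passed 2-fold in the concentrate to milk-only comparison (IGFBP6, lower, as 6.39% of genes were, with 2.71% higher), 3 in the hay to milk-only comparison (all lower, as 9.67% of genes were, with 1.81% higher) and 2 in the concentrate to hay comparison (IGFBP2 and IGFBP5, higher, as 3.83% of genes were, with 0.609% lower). The comparisons share libraries, and the genes were picked with these values known, so nothing is read from these counts. The median log2 ratio of all measured genes was 0.04, -0.16 and 0.19 in these comparisons. Relative to median-of-ratios scaling, which sets that median near 0, the hay to milk-only ratios were 0.253 for IGFBP2, 0.26 for IGFBP5 and 0.376 for IGFBP6, and all 3 stayed at least 2-fold lower.

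Shares of cells with a UMI depend on depth, so each cell was thinned to 2000 UMIs, which left out 69 shallower concentrate keratinocytes, 0 hay and 219 milk-only ones. IGFBP2 was then found in 78.5% (77.3 to 79.7) of concentrate, 38.7% (37.6 to 39.9) of hay and 77.0% (75.5 to 78.5) of milk-only keratinocytes. Without thinning the shares were 95.9%, 68.9% and 88.2%. The small excess of concentrate over milk only runs against the levels, and at 2 or more UMIs it turned to 51.2%, 13.0% and 58.2%, so no order of concentrate and milk only is read from it. By class the share was higher with milk only, at 85.2% against 78.1% in keratinocytes outside the clusters named cycling or differentiated. It was 90.4% against 83.3% in cycling and 34.9% against 29.0% (9 of 31 concentrate cells) in differentiated keratinocyte-like cells. In hay, fewer cells held the transcript and those that did held fewer copies, with 2.32, 1.51 and 3.21 thinned UMIs per positive cell in concentrate, hay and milk only.

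IGFBP5 was found in 34.6%, 8.89% and 29.4% of thinned concentrate, hay and milk-only keratinocytes, against 66.9%, 21.2% and 62.7% unthinned. IGFBP6 was found in 18.6%, 14.4% and 30.3% of them, against 45.5%, 31.2% and 60.1% unthinned. Both shares ranked as the levels did. As a measure of free RNA in the droplets, the T or NK-like cells of the milk-only library, which should lack these genes, had thinned shares of 5.10% for IGFBP2, 0.680% for IGFBP5 and 1.02% for IGFBP6, at a median depth of 4785 UMIs against 11663 in keratinocytes. Macrophage or dendritic-like cells of the hay library had 3.33% for IGFBP2 and 0% for IGFBP5 and IGFBP6 (0 of 30 thinned cells), at a median of 3598 UMIs against 5897 in keratinocytes. Macrophage or dendritic-like cells of the milk-only library had 14.2%, 2.83% and 5.66% for IGFBP2, IGFBP5 and IGFBP6, at a median of 13613 UMIs. In the concentrate library IGFBP2 was in 1 of 23 thinned T or NK-like and 3 of 43 macrophage or dendritic-like cells, and IGFBP5 and IGFBP6 in 0. Their median depths were 2083.5 and 3563 UMIs, against 8282.5 in keratinocytes. In all 3 libraries the keratinocyte shares lay above the upper limits of these shares in the same library, except IGFBP5 with hay. Its 8.89% lies under the upper limit of 11.6% that 0 of 30 cells gives, so that share is not shown to be above background. By level, IGFBP5 with hay was at 51.3 CPM (49.3 to 53.5) in keratinocytes. In the 30 macrophage or dendritic-like cells it was at 8.22 CPM from 1 UMI, with an upper limit of 45.8 CPM.

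Pairs of members were found together at 0.926 to 1.25 times the number that their separate shares gave. In thinned keratinocytes the observed number of cells with both members, divided by the number expected from independent shares, was 1.04, 0.926 and 1.13 for IGFBP2 with IGFBP5 in concentrate, hay and milk only. For IGFBP2 with IGFBP6 it was 1.05, 1.25 and 1.16, and for IGFBP5 with IGFBP6 it was 1.07, 0.963 and 1.19. The furthest from 1 was IGFBP2 with IGFBP6 in hay, with 488 cells against 389 expected. A gene found in most cells, as IGFBP2 was with concentrate and milk only, leaves little room for a ratio above 1. Within clusters of each library the ratios were 1.03, 0.982 and 1.03 for IGFBP2 with IGFBP5, 1.03, 1.14 and 1.05 for IGFBP2 with IGFBP6, and 1.07, 1.09 and 1.04 for IGFBP5 with IGFBP6 in concentrate, hay and milk only. All 3 transcripts were found in 5.61%, 0.629% and 9.55% of concentrate, hay and milk-only cells, and none of the 3 in 13.1%, 48.8% and 16.9%. No pair in any library had a ratio below 0.926.

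Position in the layers was described through genes of the same cells. Among keratinocytes outside the clusters named cycling or differentiated, positive cells were set against negative cells after thinning. These clusters had no marker name and were not uniform. Cluster 3 (433 concentrate and 1328 hay cells) had no fixed cycling marker at 2-fold, but CDT1, MSH6, HELLS, RFC4 and RFC2, genes of DNA replication and its repair, were among its leading genes. Cluster 9 (111 concentrate, 283 hay and 16 milk-only cells) had KRTDAP among its leading genes. SPINK5, a serine protease inhibitor of the upper layers, was at 12.05 CPM in IGFBP6-positive against 80.8 CPM in IGFBP6-negative concentrate cells, a ratio of 0.149 (0.0877 to 0.238). The ratio was 0.368 with hay and 0.451 with milk only. KRTDAP, a differentiation-associated secreted protein, was at 0.227 (0.0896 to 0.481), 0.297 and 0.785 of the IGFBP6-negative level in concentrate, hay and milk only. With milk only the KRTDAP interval (0.547 to 1.11) included 1. Without cluster 9, the SPINK5 ratio for IGFBP6 was 0.158, 0.535 and 0.447 and the KRTDAP ratio 0.344 (0.134 to 0.741), 0.661 (0.394 to 1.05) and 0.786. SPINK5 was thus lower in IGFBP6-positive cells of every library with and without cluster 9, and the low KRTDAP with hay rested in part on that cluster.

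For IGFBP2 the SPINK5 ratio was 0.330 with concentrate and 0.337 with hay, but 1.09 (0.881 to 1.36) with milk only. For IGFBP5 it was 0.272, 0.659 and 0.670. Without cluster 9 the hay value was 0.447 (0.368 to 0.541) for IGFBP2 and 0.908 (0.672 to 1.21) for IGFBP5. The KRTDAP ratio of IGFBP5-positive to IGFBP5-negative hay cells changed direction, at 0.601 with cluster 9 and 1.23 (0.761 to 1.90) without it. Other surface genes did not all follow SPINK5. For IGFBP2 with milk only, S100A8 was at 0.560 (0.504 to 0.624) and A2ML1 at 0.513, and 2 of 7 measured surface genes were higher. For IGFBP5 with concentrate, 3 of 5 were higher, with S100A8 at 1.09 (0.898 to 1.32), S100A9 at 1.01 and DSC2 at 1.07. Genes that anchor basal cells moved little. KRT15, a basal keratin, was 1.20, 1.25 and 1.10 times as high in IGFBP2-positive as in IGFBP2-negative cells, 1.20, 0.970 and 1.19 times for IGFBP5 and 1.09, 1.26 and 1.11 times for IGFBP6. ITGA6, an integrin of the hemidesmosome, was at 1.19, 1.21 and 1.29 for IGFBP6. Of the 8, 7 and 9 basal genes measured in concentrate, hay and milk only, 7, 5 and 8 were higher in IGFBP6-positive cells. Among the rest, COL17A1 was at 0.906 (0.756 to 1.08) with milk only and ITGB1 at 0.892 (0.737 to 1.07) with hay.

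Over the surface list, the median log2 ratio of positive to negative cells was -0.52, -1.02 and -0.52 for IGFBP6 (5, 6 and 7 measured genes of 9, of which 2, 5 and 2 were at least 1.5-fold lower and 0 higher), beside 0.02, 0.03 and 0.03 over all genes, of which 2.94%, 3.31% and 3.54% were at least 1.5-fold lower. For IGFBP2 it was -0.40, -0.56 and -0.50, and for IGFBP5 0.01, -0.77 and -0.32. Over the basal list the medians were between 0.03 and 0.33 for the 3 members in the 3 libraries, and of the 7 to 9 genes measured in a library at most 1 was 1.5-fold higher, as 1.34% to 11.1% of all genes were.

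**Figure D2:**
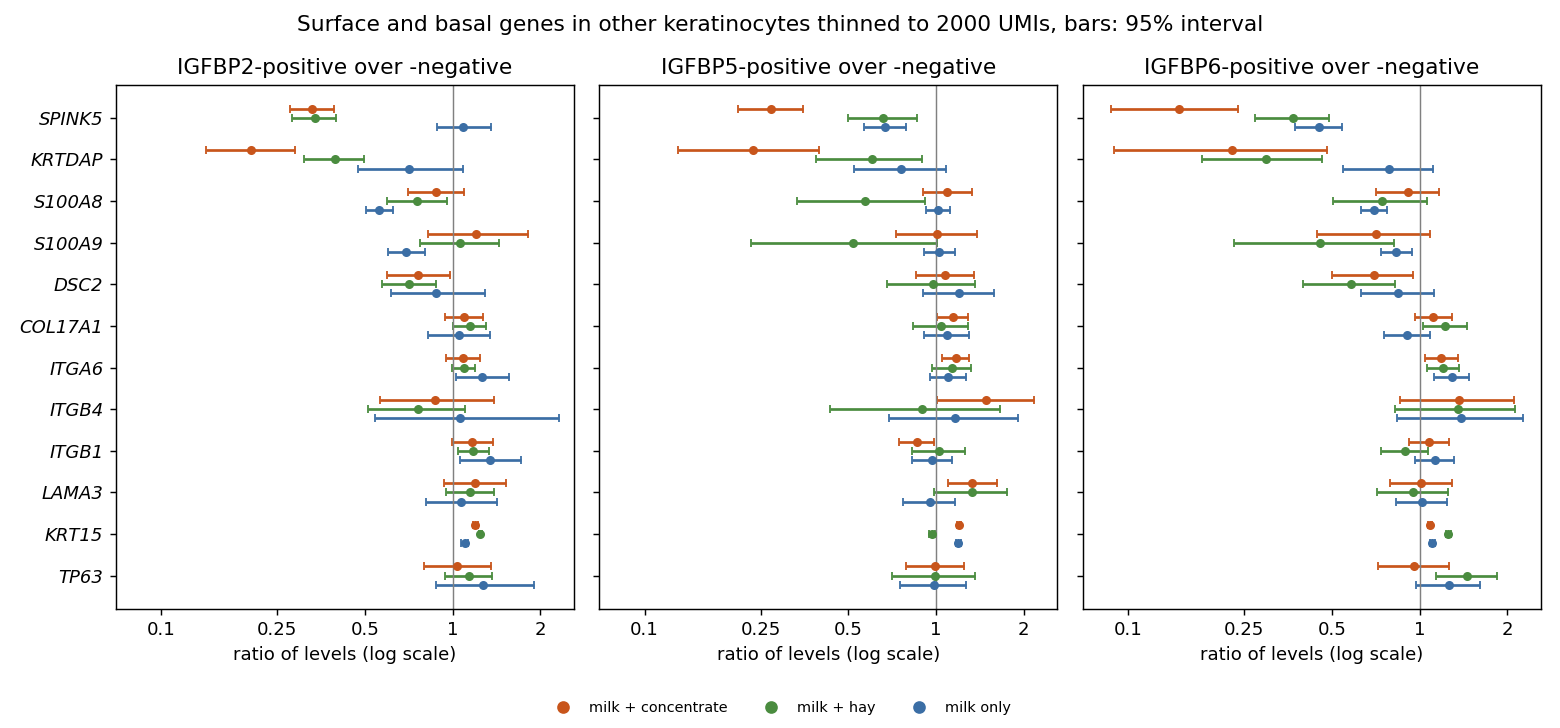
Ratio of the level in positive cells to that in negative cells for the surface genes (upper rows) and basal anchoring genes (lower rows) measured in all 3 libraries, on a log axis, in keratinocytes outside the clusters named cycling or differentiated, thinned to 2000 UMIs. Points are the concentrate, hay and milk-only libraries and bars are 95% counting intervals. SPINK5 and KRTDAP lie left of 1 in most panels, and basal genes lie near 1.

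The differentiated keratinocyte-like cells had lower levels of all 3 genes than the other keratinocytes of their library. In milk only, with 695 such cells, IGFBP2 was at 449 CPM against 1382 CPM in other keratinocytes, IGFBP5 at 48.3 against 264 CPM and IGFBP6 at 42.4 against 305 CPM. The concentrate library had 36 such cells, with 144 CPM of IGFBP2, 59.6 CPM of IGFBP5 and 4.47 CPM of IGFBP6 from 3 UMIs, and the hay library had 23. Because 695 of the 3433 milk-only keratinocytes were of this kind, the milk-only averages above include more low cells than those of the other diets. Among the other keratinocytes IGFBP2 was at 871, 272 and 1382 CPM, IGFBP5 at 311, 55.3 and 264 CPM and IGFBP6 at 115, 80.1 and 305 CPM in concentrate, hay and milk only. This residual class includes clusters 3 and 9.

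Cycling keratinocyte-like cells were compared within 1 shared cluster, and whether their cell state was equal was not tested. Of 664 such concentrate cells, 476 lay in another cluster, cluster 8, with 9 hay and 7 milk-only cells. IGFBP5 was at 193 CPM in the concentrate cells of cluster 8. In cluster 5, the cluster with at least 50 cells in every library (188, 907 and 248 cells), IGFBP2 was at 991, 329 and 1599 CPM, IGFBP5 at 132, 33.8 and 214 CPM and IGFBP6 at 116, 113 and 267 CPM in concentrate, hay and milk only. IGFBP5 in this cluster was lower with concentrate than with milk only by 1.62-fold (ratio 0.619, 0.540 to 0.707), the opposite of the sum over all keratinocytes. IGFBP6 with concentrate and with hay could not be told apart within counting error (ratio 1.03, 0.890 to 1.19). The 4.87-fold, 6.31-fold and 2.37-fold lower levels of IGFBP2, IGFBP5 and IGFBP6 in hay than in milk only were present there as well. Clusters 2 and 3, without a marker name, held many concentrate and hay cells. In cluster 2 IGFBP2 was at 950 and 394 CPM and IGFBP5 at 172 and 33.1 CPM in concentrate and hay, and in cluster 3 IGFBP2 was at 934 and 352 CPM and IGFBP5 at 175 and 28.7 CPM. IGFBP6 was at 146 and 104 CPM in cluster 2 and at 172 and 135 CPM in cluster 3.

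The highest keratinocyte value of IGFBP5 was in cluster 1, at 361 CPM, which held 2494 concentrate, 26 hay and 5 milk-only cells, and IGFBP5 was itself among the leading genes of that cluster. IGFBP6 was likewise among the leading genes of cluster 4, which held 1370 milk-only cells, so neither value is an independent result. Over 16 profiles, each the keratinocytes of 1 library in 1 cluster with at least 50 cells, the Pearson correlation of log2(CPM + 1) was 0.77 for IGFBP2 with IGFBP5, 0.88 for IGFBP2 with IGFBP6 and 0.55 for IGFBP5 with IGFBP6. Profiles of a library share its depth and its animal, so these are descriptions. Of 1928 genes compared, the 5 most like IGFBP2 were MATN2 (0.97), SENP6 (0.96), MBNL1 (0.94), PICALM (0.94) and PURA (0.93). MATN2, an adaptor protein of the extracellular matrix, was at 56.0, 20.025 and 63.3 CPM in concentrate, hay and milk only.

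The genes most like IGFBP5 were NET1 (0.89), DSC3 (0.88), OXR1 (0.86), TLK1 (0.84) and FAM129A (0.81). DSC3, a desmosomal cadherin, was at 111 CPM with concentrate, 72.1 with hay and 102 with milk only. The genes most like IGFBP6 were COL8A1 (0.94), SERPINE2 (0.93), LAMB1 (0.92), CXCL14 (0.92) and FGFR2 (0.91). COL8A1 encodes a network-forming collagen, LAMB1 a laminin chain and FGFR2 a fibroblast growth factor receptor. They were at 38.3, 27.7 and 65.0 CPM (COL8A1), 37.4, 17.9 and 50.4 CPM (LAMB1) and 53.7, 33.9 and 87.1 CPM (FGFR2) in concentrate, hay and milk only.

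**Figure D3:**
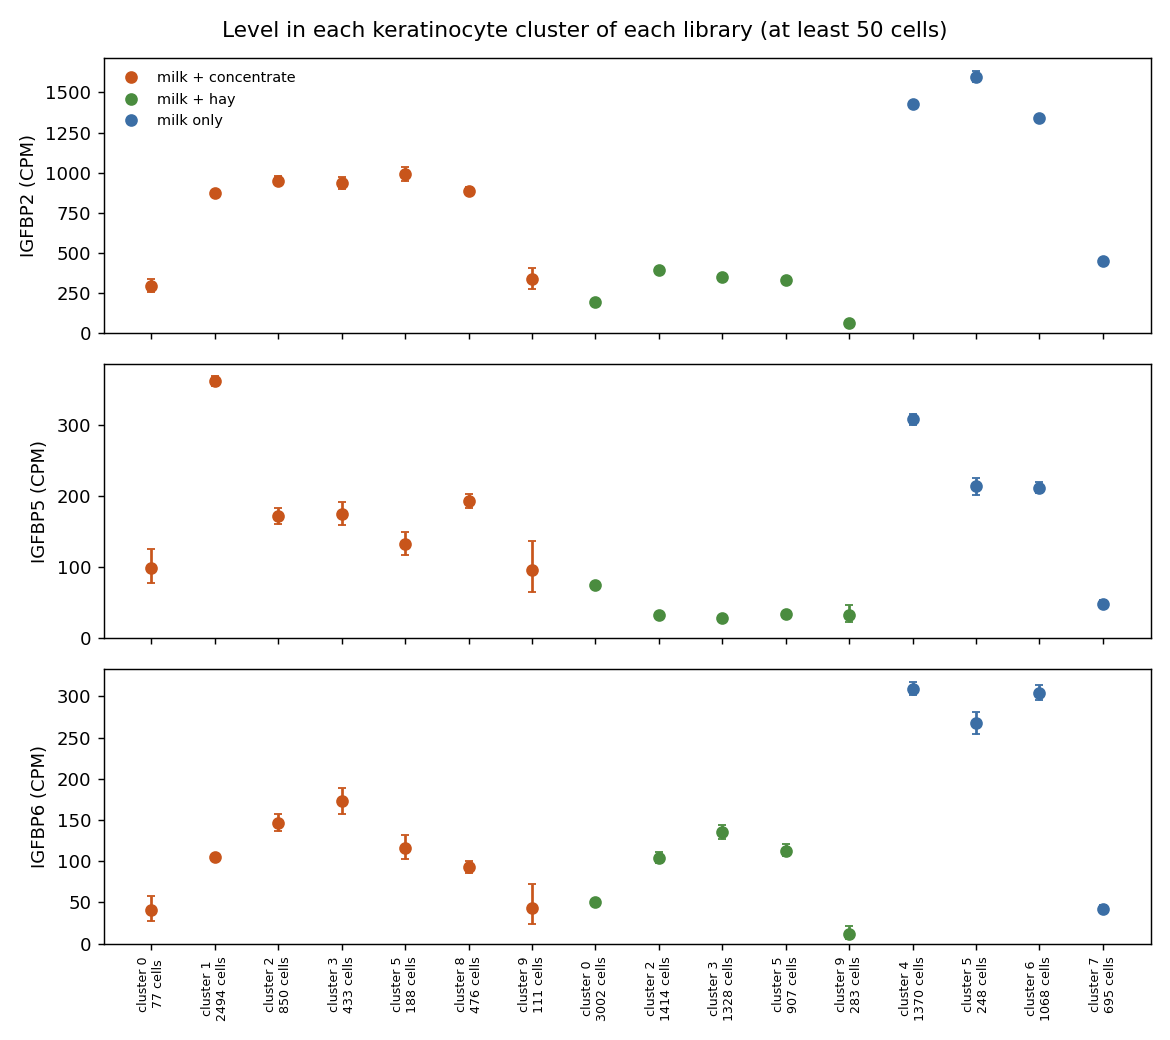
Level in CPM of IGFBP2, IGFBP5 and IGFBP6 (top to bottom) in each keratinocyte cluster of each library with at least 50 cells; bars are 95% Poisson intervals. Concentrate profiles are left, hay in the middle and milk only right. Hay profiles of IGFBP2 lie below 400 CPM, and cluster 1 with concentrate and cluster 4 with milk only hold the highest IGFBP5 values.

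IGFBP5 differed from its relatives in how it varied with the mitochondrial share of a cell, a measure of RNA quality. With concentrate it was at 90.8, 188, 318 and 448 CPM in keratinocytes with 0 to 5%, 5 to 10%, 10 to 15% and 15 to 20% mitochondrial UMIs. With hay it was at 31.5, 29.6, 53.6 and 113 CPM, and with milk only at 181, 232, 234 and 223 CPM. In the same keratinocytes IGFBP2 and IGFBP6 were highest at 5 to 10%, except IGFBP6 with milk only, which was highest at 0 to 5%. The 0 to 5% bin held 150 concentrate and 328 hay cells. Cluster 9, with 111 concentrate and 283 hay cells, had a median mitochondrial share of 0.465%. IGFBP5 in cluster 9 was at 96.0 CPM with concentrate and 33.0 CPM with hay. The lowest bin in these 2 libraries is thus not read as a step in RNA quality.

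The level of IGFBP5 in cells at 15 to 20% over cells at 5 to 10% was 2.39 (2.27 to 2.51) with concentrate and 3.81 (3.44 to 4.23) with hay, against 0.963 (0.898 to 1.03) with milk only. Of the genes compared, 98.5% with concentrate and 99.4% with hay had a smaller ratio. The same ratio was 0.739, 0.554 and 0.542 for IGFBP2 and 0.559, 0.392 and 0.457 for IGFBP6 in concentrate, hay and milk only, beside medians of 0.969, 0.956 and 0.846 over all genes. Within the largest cluster of each library the IGFBP5 ratio was 2.21 in concentrate cluster 1, 3.14 in hay cluster 0 and 1.17 in milk-only cluster 4. The part of the mitochondrial share in the difference between diets was not tested. In keratinocytes under 10% mitochondrial UMIs the concentrate level of IGFBP5 was 0.855 of the milk-only level, and the hay level 0.138 of it.

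**Figure D4:**
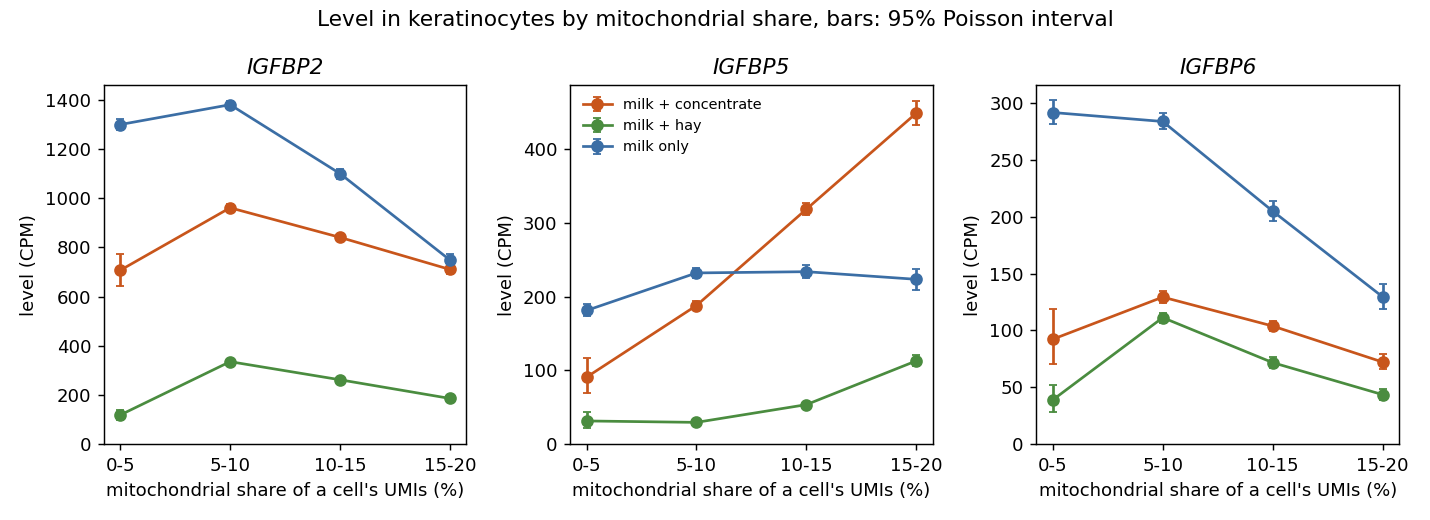
Level in CPM of each gene in keratinocytes of each library by mitochondrial share, in 4 bins. Points are the concentrate, hay and milk-only libraries and bars are 95% Poisson intervals. IGFBP5 climbs across the bins with concentrate, climbs from the 5 to 10% bin upward with hay and is flat above 5% with milk only.

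Stromal cells were found mainly with concentrate, so the levels in them describe 1 library. The fibroblast-like cluster, with COL3A1, COL1A2 and COL1A1 among its leading genes, had IGFBP6 at 1531 CPM (1351 to 1730), which was 14.0 times (12.3 to 15.8) the level in the keratinocytes of that library, at 109.5 CPM. With fibroblasts taken instead as the 129 cells with a UMI of COL1A2 or COL3A1, of which 57 were in that cluster, the ratio was 3.11 (2.77 to 3.47). KRT15 was at 5341 CPM in those 129 cells, against 976 CPM in the cluster. A UMI of IGFBP6 was found in 49 of 57 fibroblast-like cells, and in 84.1% of the 44 such cells with 2000 UMIs, against 18.6% of keratinocytes. Fibroblast-like cells, 57 of 4891 cells, held 5.01% of the IGFBP6 UMIs of the concentrate library. Keratinocytes held 94.4% of them.

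The cluster of the endothelial-like cells was called from the lymphatic endothelial marker list, which scored above the general endothelial list (median log2 fold 8.46 against 7.14). Endothelial-like cells, with PECAM1, CDH5, LYVE1 and MMRN1 among the leading genes of their cluster, were the cells with the highest IGFBP5. It stood at 674 CPM (559 to 806), 2.40 times (1.99 to 2.88) the keratinocyte level of 280.4 CPM, and 24 of 59 cells held a UMI. In the 83 cells with a UMI of PECAM1 the ratio was 1.57 (1.33 to 1.83). IGFBP5 was at 248 CPM in fibroblast-like cells, 0.886 times the keratinocyte level (0.638 to 1.20). IGFBP6 in endothelial-like cells was at 167 CPM, 1.53 times (1.03 to 2.18) that of keratinocytes.

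KRT15 was used to gauge keratinocyte RNA in stromal droplets. It stood at 0.124 (0.106 to 0.144) of the keratinocyte level in fibroblast-like cells and 0.0318 (0.0232 to 0.0426) in endothelial-like cells. IGFBP2 in fibroblast-like cells was at 0.102 (0.0572 to 0.168) of the keratinocyte level, which is the size of the KRT15 ratio. It came from 15 UMIs in 6 of the 57 cells, while 28 of them held KRT15. Whether these IGFBP2 UMIs are keratinocyte RNA was not tested. Among the 129 cells with a collagen UMI the IGFBP2 ratio was 0.774. In endothelial-like cells IGFBP2 was at 340 CPM, 0.391 (0.299 to 0.503) of the keratinocyte level, above the KRT15 ratio, and 0.690 of it in the 83 cells with a PECAM1 UMI. The 340 CPM came from 61 UMIs in 13 of the 59 endothelial-like cells. In milk-only T or NK-like cells the ratios were 0.0362 for IGFBP2, 0.0227 for IGFBP5 and 0.0442 for IGFBP6, against 0.0433 for KRT15, and in milk-only macrophage or dendritic-like cells 0.170, 0.176 and 0.228, against 0.176. Every one of these member intervals overlapped that of KRT15, though IGFBP6 in the macrophage or dendritic-like cells (0.184 to 0.280) did so only at the upper end of the KRT15 interval (0.169 to 0.184). In concentrate T or NK-like cells IGFBP2 was at 0.0123 and KRT15 at 0.0231. In concentrate macrophage or dendritic-like cells IGFBP2 was at 0.126 and KRT15 at 0.0937. IGFBP5 and IGFBP6 had at most 1 UMI each in these concentrate classes.

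**Figure D5:**
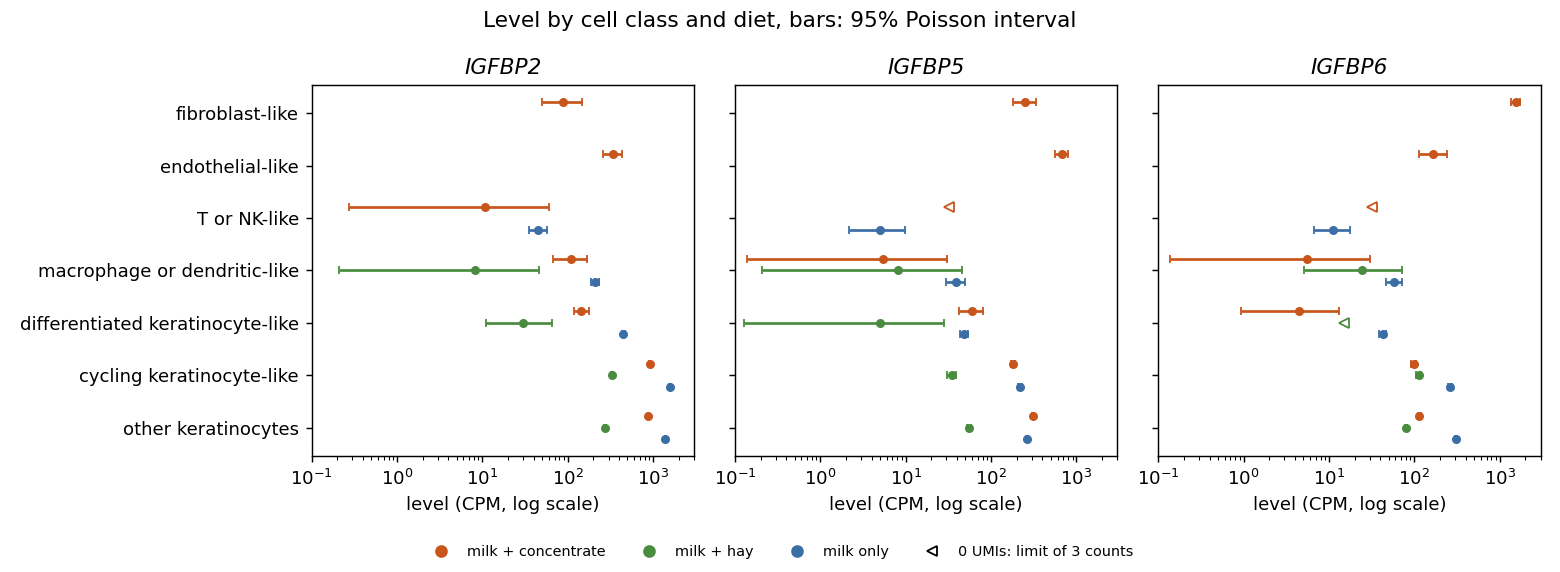
Level of each gene by cell class and library in CPM on a log axis, with 95% Poisson intervals; open triangles mark 0 UMIs at the limit of 3 counts. IGFBP6 is highest in fibroblast-like cells and IGFBP5 in endothelial-like cells, both of the concentrate library, and IGFBP2 is highest in keratinocytes.

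The ligands were mainly stromal where stroma was present. IGF2 had 281 UMIs in the concentrate cells, of which 240 were in fibroblast-like cells at 1419 CPM and 16 in keratinocytes at 0.359 CPM. IGF1 had 33, of which 15 were in fibroblast-like and 15 in endothelial-like cells. IGF2 was also seen in milk-only keratinocytes, with 316 UMIs at 6.65 CPM in 197 cells, against 9 UMIs in hay keratinocytes. The milk-only T or NK-like cells had 21 UMIs of IGF2 at 13.1 CPM (8.12 to 20.1). The milk-only keratinocyte level is thus not shown to be above background. IGF1R, the receptor that both ligands signal through, was at 8.29, 6.43 and 6.31 CPM in the keratinocytes of the concentrate, hay and milk-only libraries.

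Of 44 genes on a list of the IGF system, 37 had a symbol and 13 passed 10 CPM in the keratinocytes of a library, 10 of them other than the 3 members. Among those 10, 1 was at least 2-fold higher and 1 lower with concentrate than with milk only, 1 higher and 2 lower with hay than with milk only, and 2 higher and 0 lower with concentrate than with hay. Of all measured genes, 2.71% were higher and 6.39% lower in the first comparison, 1.81% and 9.67% in the second and 3.83% and 0.609% in the third. Nothing is read from counts among so few genes. The median log2 ratios of the 10 genes were -0.09, -0.45 and 0.41, beside 0.04, -0.16 and 0.19 over all measured genes. MMP9, a metalloprotease, was at 12.5, 13.5 and 3.35 CPM in concentrate, hay and milk only. IGFBP7, a low-affinity relative, was at 2.70, 0.532 and 11.2 CPM in the keratinocytes, and at 813 CPM in concentrate endothelial-like cells. PIK3R1, the regulatory subunit of PI3-kinase, was at 184, 87.5 and 214 CPM. INSR, HTRA1, GRB2, PIK3CA, PDPK1, TSC2 and FOXO3 were below 2-fold in all 3 comparisons.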

How the data were processed

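The authors deposited raw UMI counts per gene and barcode for 3 droplet libraries of rumen epithelium, 1 per diet. They were made with Cell Ranger, version 3.1 per the submitters' processing notes and 5.0.0 per the file headers. The sources used here give neither the genome build and annotation nor the rule for selecting barcodes, and coordinates are left out. Symbols came from the deposited files (17043 of 26247 genes).

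Barcodes were kept as cells from 500 genes upward, where 13 mitochondrial genes took less than 20% of the UMIs. They were scaled to 10000 UMIs, log-transformed and clustered with scanpy 1.11.5 and leidenalg 0.10.2 (2000 variable genes, 30 components, 15 neighbours, resolution 0.6, libraries not integrated). Doublets were kept, since no caller was run. Clusters were named from marker lists needing 3 markers at 20 CPM and at least 2-fold above the other cells. Clusters without a name were counted as other keratinocytes. Different clusters hold most of that class in each library.

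UMIs were summed over cells and given in CPM. No test was run, as a diet had 1 library. Intervals at 95% are exact Poisson (levels), conditional binomial (ratios) and Clopper-Pearson (shares), for counting error only, and 0 UMIs were given a limit of 3 counts. Cells were thinned at random to 2000 UMIs for shares. The ratio and thinning steps were tested on simulated data. Genes named besides the members are the IGF list, the basal and surface lists and the 5 genes closest to each member over profiles. Members, lists and procedures were chosen with earlier results of these data known. Alternatives were other scalings, cell filters, cell classes, thinning depths and clusters left out.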

Additional observations from a re-analysis of the deposited data

Results flagged for a closer look

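IGFBP5 differed in opposite directions between concentrate and milk only in 2 keratinocyte classes. The ratio was 1.18 in other keratinocytes and 0.823 in cycling keratinocyte-like cells, and the difference between the classes was not tested. IGFBP6 did the same between concentrate and hay, with 1.43 in other keratinocytes and 0.875 in cycling keratinocyte-like cells, also not tested. In cycling cluster 5 alone that ratio was 1.03 (0.890 to 1.19). The value of 0.875 also includes cluster 8, with 476 concentrate cells at 92.9 CPM of IGFBP6 and 9 hay cells.

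The barcodes outside the cell filters, used only in the alternative without a cell filter, also held these transcripts. With concentrate (4323 barcodes) IGFBP2 was at 324 CPM, IGFBP5 at 215 CPM and IGFBP6 at 44.3 CPM. With hay (2512 barcodes) they were at 115, 93.05 and 19.8 CPM. With milk only (3182 barcodes) they were at 269, 89.5 and 52.7 CPM. IGFBP5 with hay was the member with a higher level outside the filters (93.05 CPM) than in keratinocytes (51.3 CPM).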

How the results depend on the processing

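Of 9 ratios between diets under 22 alternatives, 86 values moved by less than the counting interval, 106 moved beyond it and 6 changed direction. IGFBP2 ranged from 0.579 to 0.768 (concentrate over milk only), 0.197 to 0.279 (hay over milk only) and 2.53 to 3.36 (concentrate over hay), and IGFBP6 from 0.372 to 0.496 and from 0.262 to 0.442 over milk only. The log2 ratio of IGFBP5, concentrate over milk only, was 0.35 and turned to -0.23 under 10% mitochondrial UMIs, -0.28 in cycling cells, -0.38 without cluster 1 and -0.69 in cluster 5 alone. That of IGFBP6, concentrate over hay, was 0.36 and turned to -0.19 in cycling cells and -0.0227 without cluster 0. Values over 1.5-fold from the main one were 7, all of IGFBP5. They include the ratio of concentrate to hay, 8.63 without cluster 0 and 3.31 without cluster 1, and of hay to milk only, 0.138 under 10% mitochondrial UMIs and 0.149 without cluster 0. Without cluster 9 the hay log2 ratio of KRTDAP in IGFBP5-positive over IGFBP5-negative cells, -0.74, turned to 0.30, and without cluster 3 that of KRT15, -0.04, turned to 0.0083. Without cluster 9 the KRTDAP ratio for IGFBP2 was 0.359 with concentrate and 0.666 with hay, against 0.203 and 0.394 with it. These were chosen after seeing the data. The cause was not tested.

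The order of the libraries in share of positive cells was the same at 4000 UMIs and without thinning for all 3 genes. With fibroblasts taken by at least 1 UMI of COL1A2 or COL3A1 (129 cells), the log2 ratio to keratinocytes was 1.63 for IGFBP6 and -0.37 for IGFBP2, and at 3 UMIs (60 cells, chosen after seeing the data) 3.46 and -2.02, against 3.81 and -3.29 by cluster. With endothelial cells taken by PECAM1, IGFBP2 was at -0.54 (1 UMI) and -0.84 (3 UMIs), against -1.35, and IGFBP5 at 0.65 (1 UMI), against 1.27. The gate of 1 UMI held KRT15 at 5341 CPM in fibroblasts. The number of members past 2-fold and the co-expression count did not change by over 1.5 times under any alternative run. No paired analysis was possible because each diet had 1 library, and for the same reason no replicate could be left out. The alternatives limited to cluster 5 and to the depth of the lowest hay barcode were also chosen after seeing the data.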
